A study of Mus musculus with 6 samples.

Results

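Ccdc115 and the genes of the vacuolar proton pump were described in the mouse B-cell line 230-238, with and without added FOG1. The 10 genes are Ccdc115, Tmem199, Atp6ap1, Atp6ap2, Atp6v0a1, Atp6v0a2, Atp6v0d1, Atp6v1a, Atp6v1b2 and Atp6v1h. They were taken by name, as subunits or assembly factors of the pump, and are measured by 11 of the 21640 probe sets whose annotation gives exactly 1 gene symbol, out of 34760 probe sets on the array. Those 21640 probe sets cover 19937 genes. Ccdc115 was singled out for its difference between the groups, so the values of the 10 genes in this contrast are a description and carry no test.

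The control group, GFP, had 3 arrays of 230-238 cells infected with a plasmid for green fluorescent protein (GFP) only, and the group GFP+FOG1 had 3 arrays of cells infected with a plasmid for GFP and FOG1, the zinc finger cofactor of GATA factors encoded by Zfpm1. All cells grew for 3 days, were sorted as GFP+ and grew for 4 more days. RNA was taken without DNase treatment, and 100 ng of RNA was amplified per array. Both groups come from 1 cell line. The labels call the samples biological replicates but do not say whether they were infected separately, so p-values measure only the spread between these samples, which may be technical. The question put by the comparison is how FOG1 changes the RNA of these cells. Zfpm1 itself had signals of 9.41 to 9.49 log2 units with GFP and 10.16 to 10.21 with GFP+FOG1, which matches the labels of all 6 arrays.

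All 9 measured genes of a B-lineage marker list (among them Cd79a, Pax5 and Ebf1) lay at or above the median signal of 7, and their mean signal was 11.99 to 12.03 with GFP and 11.93 to 11.99 with GFP+FOG1. The groups did not overlap for 3 of the 9, beside 19.6% of all probe sets. These were Cd79a (log2 change -0.41), Cd79b (-0.16) and Cd72 (0.15), and none of the 9 had an adjusted p under 0.05 (limma). Any pair of arrays correlated at 0.9925 to 0.996 over all probe sets. Markers of T and NK cells, of erythroid cells and megakaryocytes, and of osteoclasts each had 1 measured gene at or above the median signal, of 6, 6 and 7. Macrophage markers had 2 of 8 there, with a mean of 6.71 to 6.77 with GFP and 6.43 to 6.49 with GFP+FOG1. All 8 had negative log2 changes (7 after quantile normalization or median centring), and Itgam alone passed the threshold, an adjusted p under 0.05 over all probe sets (limma with Benjamini-Hochberg adjustment, adjusted p = 0.0075). Fibroblast and stromal markers had 5 of 7 at or above the median signal, with means of 7.67 to 7.78 with GFP and 7.38 to 7.89 with GFP+FOG1.

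The vacuolar proton pump, or V-ATPase, is a rotary enzyme that acidifies lysosomes, endosomes, the Golgi apparatus and secretory vesicles. Its cytosolic V1 sector splits ATP, and its membrane V0 sector carries the protons. V0 is put together in the endoplasmic reticulum with the help of Ccdc115, Tmem199 and Vma21, the counterparts of yeast assembly factors, and loss of human CCDC115, TMEM199 or ATP6AP1 causes congenital disorders of glycosylation. In B cells, acid endosomes and lysosomes are where antigen taken up by the B-cell receptor is cut and loaded.

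Ccdc115 lies on mouse chromosome 1 on the minus strand, head to head with Imp4, a gene of ribosomal RNA processing on the plus strand. In the RefSeq gene table (GRCm38.p6) Ccdc115 spans 34436670 to 34439672 and Imp4 starts at 34439829, a distance of 157 bp. The 156 bases between the start sites are shown because the log2 changes of the genes on either side had opposite signs. They are chr1:34439673-34439828, intergenic, read on the minus strand toward Ccdc115, from RefSeq, with the letters CACGTG in capitals.
Ccdc115 to Imp4 interval: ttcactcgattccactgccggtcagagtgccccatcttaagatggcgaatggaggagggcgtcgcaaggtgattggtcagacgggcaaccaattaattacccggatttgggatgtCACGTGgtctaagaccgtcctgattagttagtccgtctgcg

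CACGTG is an E-box, and within a longer motif it is known as the binding letters of TFEB, a transcription factor of lysosomal genes. Its first base lies 41 bases before the start of Ccdc115. Windows of 300 bases, from 250 before to 50 after the start, were found for 7 of the 10 genes, and 3 of these held CACGTG. Of 14 other subunit genes, with 19 windows between them, 2 held it in a window. Of 32851 windows of that length over all genes, 7.15% did, a share by window and not by gene. The E-box of Ccdc115 also lies in the window of Imp4, 121 bases before its start. The letters read the same on both strands. To show the flanks, each E-box of the 10 genes is given with 10 bases on either side, on the gene's own strand, from RefSeq (GRCm38.p6), with the E-box in capitals.
Ccdc115, chr1:34439698-34439723, minus strand: tttgggatgtCACGTGgtctaagacc
Atp6v0d1, chr8:105566052-105566077, minus strand: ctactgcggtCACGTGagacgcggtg
Atp6v1a, chr16:44139375-44139400, minus strand: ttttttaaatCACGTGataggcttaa

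The E-box begins 3 bases before the start of Atp6v0d1 and 131 bases before the start used for the Atp6v1a window. That start lies inside the RefSeq gene, which reaches 44139702 on the minus strand, so the E-box of Atp6v1a lies within the annotated gene. The window of Atp6v0a1 also lies inside its gene, whereas the starts of Ccdc115 and Atp6v0d1 are the RefSeq gene boundaries. The GATA letters AGATAA and TGATAA, searched on both strands, were in 0 of the 7 windows and in a window of 4 of the 14 other subunit genes. Counted by window and not by gene, 18.6% of all windows held one or the other. These matches are letters in a window and were not tested as binding sites. Of the 3 genes with an E-box, Ccdc115 had a log2 change of 0.89, and Atp6v0d1 and Atp6v1a had changes of -0.02 and -0.03. Imp4, which shares the E-box of Ccdc115, had a log2 change of -0.22.

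Ccdc115, the assembly factor, was 1.85-fold higher in the FOG1 cells. Its log2 signals were 7.77, 7.64 and 7.46 with GFP and 8.58, 8.49 and 8.47 with GFP+FOG1. The groups did not overlap, and the lowest FOG1 array lay 0.7 log2 units above the highest GFP array. The means were 7.62 ± 0.16 and 8.51 ± 0.06 (SD, n = 3 per group), and the log2 change was 0.89 with a standard error (SE) of 0.085. Among the 21640 1-symbol probe sets it was the 9th largest rise, counting all of them whatever their spread. Its GFP arrays were spread more widely than those of 83.5% of all probe sets, and GFP replicate 3 was the lowest of them.

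Tmem199, which forms a complex with Ccdc115 in V0 assembly, had a log2 change of 0.07 (SE 0.042). Its signals were 7.97, 7.99 and 7.97 with GFP and 8.02, 8.03 and 8.08 with GFP+FOG1. The groups did not overlap, but all 6 values lay within 0.11 log2 units. Among 1-symbol probe sets, 47.7% had a larger change in either direction than Tmem199, and 0.0924% had a larger one than Ccdc115.

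Atp6ap1 and Atp6ap2 encode accessory membrane proteins of the pump, the latter also known as the prorenin receptor. Atp6ap1 stood at 11.45, 11.48 and 11.46 with GFP and 11.44, 11.42 and 11.38 with GFP+FOG1, a log2 change of -0.05 (SE 0.042) with FOG1 just below. Atp6ap2 had 9.74, 9.80 and 9.87 with GFP and 9.73, 9.76 and 9.77 with GFP+FOG1, and its groups overlapped (log2 change -0.05, SE 0.050).

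**Figure D1:**
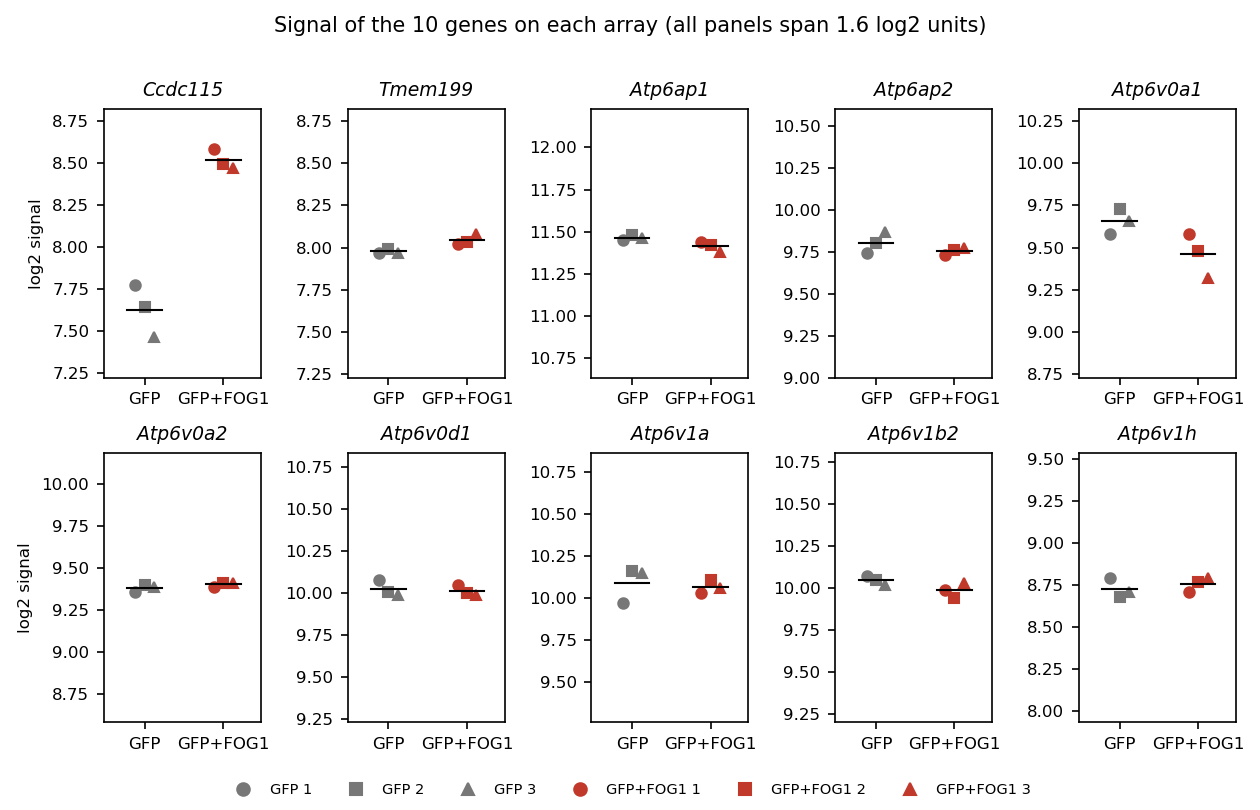
Log2 signal of each of the 10 genes on the 3 GFP (grey) and 3 GFP+FOG1 (red) arrays, with group means as black lines and a vertical span of 1.6 log2 units in each panel. Ccdc115 goes from a mean of 7.62 to 8.51, and Atp6v0a1 from 9.66 to 9.46, while the other 8 genes have changes between -0.06 and 0.07.

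The 3 V0 genes among the 10 had log2 changes between -0.20 and 0.02. Atp6v0a1, one of the isoforms of the large a subunit that sets where the pump works, had 9.58, 9.73 and 9.66 with GFP and 9.58, 9.48 and 9.32 with GFP+FOG1. The FOG1 arrays were the lower ones, but the gap between the groups was only 0.0061 log2 units, and FOG1 replicate 3 was the lowest array. Its log2 change was -0.20 (SE 0.079), a level 1.15-fold lower with FOG1, and 7% of 1-symbol probe sets had a larger change in either direction. Leaving out single arrays moved it between -0.26 and -0.13.

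Atp6v0a2, the a subunit isoform of the Golgi and endosomes, has 2 probe sets. The brighter had 9.36, 9.40 and 9.39 with GFP and 9.39, 9.41 and 9.41 with GFP+FOG1 (log2 change 0.02, SE 0.041), and the other had a log2 change of -0.04 (SE 0.044). Both overlapped between the groups and differed in sign. Atp6v0d1, the widely expressed d subunit that links the rotor to the stalk, had 10.08, 10.01 and 9.99 with GFP and 10.05, 10 and 9.99 with GFP+FOG1, which overlapped (log2 change -0.02, SE 0.047).

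The V1 genes among the 10 also overlapped between the groups. Atp6v1a, the catalytic subunit that binds and splits ATP, had 9.97, 10.16 and 10.15 with GFP and 10.03, 10.11 and 10.06 with GFP+FOG1 (log2 change -0.03, SE 0.067). GFP replicate 1 was its lowest array, and without it the log2 change was -0.09. Atp6v1b2, the B subunit isoform found in most tissues, had 10.07, 10.05 and 10.02 against 9.99, 9.94 and 10.03 (log2 change -0.06, SE 0.045). Atp6v1h, the H subunit that regulates the coupling of V1 to V0, had 8.79, 8.68 and 8.71 against 8.71, 8.77 and 8.79 (log2 change 0.03, SE 0.050).

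In the fit across all probe sets, 1 of the 10 genes was called, Ccdc115, where 0.224% of all probe sets were called. Since Ccdc115 was picked on this contrast, nothing is read from that count. Its log2 change was 0.81 to 0.96 with any single array left out. It kept its call without GFP replicate 1 and lost it without GFP replicate 2 or 3 and without FOG1 replicate 1, 2 or 3. The groups did not overlap for 4 of the 10 genes, 2 with FOG1 above and 2 with FOG1 below, beside 19.6% of all probe sets with no overlap, 9.13% with FOG1 above and 10.5% with FOG1 below. The median log2 change was -0.022 over the 10 genes and -0.028 over the 9 other than Ccdc115, beside -0.01 over all probe sets. After each array was centred on its median, these medians were 0.004, -0.002 and 0.015, and after quantile normalization -0.047, -0.053 and -0.001. The sign of such small medians thus moved with the scaling, while both medians of pump genes lay below that of all probe sets in each of the 3 settings.

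The remaining subunits of the pump were listed by the textbook composition of the enzyme. Of 17 such genes, 16 had a 1-symbol probe set. None passed the threshold (limma), and 1 had an unadjusted p under 0.05, as 12.5% of all probe sets did. The median log2 change was -0.03, with a range of -0.12 to 0.15. Log2 changes were positive for 6 and negative for 10 of them, and for 8 and 8 after median centring. Atp6v1g1, a stalk subunit, had the smallest p, with 9.36, 9.34 and 9.33 with GFP against 9.27, 9.17 and 9.24 with GFP+FOG1 (log2 change -0.12, SE 0.046; limma adjusted p = 0.38). Atp6v1g2, another G subunit isoform, had a log2 change of -0.09 (adjusted p = 0.42, limma).

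Atp6v1f, the F subunit of the V1 rotor shaft, had the highest value among them, with 10.52, 10.75 and 10.76 against 10.80, 10.83 and 10.85 (log2 change 0.15, SE 0.072; limma adjusted p = 0.45). Its dimmer probe set had a log2 change of 0.33 with an SE of 0.20 and overlapping groups. Tcirg1, the a subunit isoform of lysosomes and osteoclasts, was at -0.01 (SE 0.060; limma adjusted p = 0.95). Atp6v0b, a proton-carrying ring subunit, was at -0.06 (limma adjusted p = 0.66).

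The isoform genes Atp6v0d2, Atp6v1g3, Atp6v1c2, Atp6v0a4 and Atp6v1b1 had signals below the median of all values. Mean signals of Atp6v1g3 were 5.86 with GFP and 5.76 with GFP+FOG1, and those of Atp6v1c2 were 6.05 and 6.06. Atp6v0d2, the osteoclast d subunit, had mean signals of 4.61 ± 0.09 and 4.49 ± 0.10 (SD, n = 3 per group). Atp6v0a4 and Atp6v1b1, known from the acid-secreting cells of the kidney, stayed between 6.09 and 6.38 on all 6 arrays. Background can make up some of so low a signal, and log2 changes there are then too small. By sector, the 9 measured V0 genes had a median log2 change of -0.04, with 8 negative, and the 13 measured V1 genes a median of 0.01, with 6 negative. After median centring these were -0.02 with 6 negative and 0.04 with 5 negative. No pump gene other than Ccdc115 had a log2 change beyond 0.3 in either direction at its brightest probe set.

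**Figure D2:**
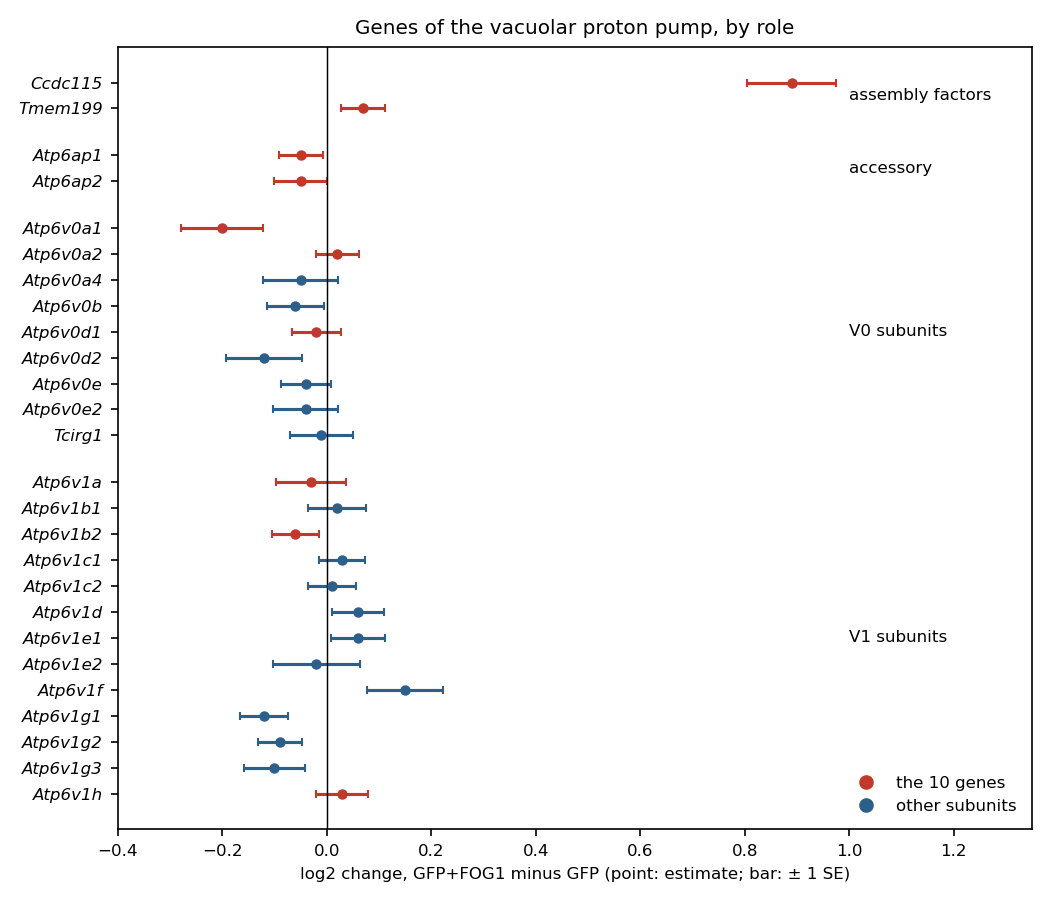
Log2 change (GFP+FOG1 minus GFP) with ± 1 SE for the 26 measured pump genes, grouped as assembly factors, accessory subunits, V0 and V1, with the 10 genes in red and other subunits in blue. Ccdc115 lies at 0.89, and the other 25 genes lie between -0.20 and 0.15.

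Further assembly and regulatory factors of the pump were measured for 11 of 11 genes. None passed (limma, with 2 at an unadjusted p under 0.05, beside 12.5% of all probe sets), and the median log2 change was 0.01. Vma21, the chaperone that works with Ccdc115 and Tmem199, was at 0.06 (SE 0.048; limma adjusted p = 0.63). Oxr1, of the TLDc family of proteins that can take V1 off the membrane, had 7.52, 7.50 and 7.51 with GFP and 7.23, 7.25 and 7.36 with GFP+FOG1. Its groups did not overlap (log2 change -0.23, SE 0.050), but it did not pass (limma adjusted p = 0.20). Dmxl1, of the complex that puts V1 back onto V0, was at 0.14 (limma adjusted p = 0.36), Wdr7, of the same complex, at -0.11 (0.52), and Rnasek, a small pump-associated membrane protein, at 0.10 (0.45).

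The 4 nearest measured neighbours of Ccdc115 on chromosome 1 had negative log2 changes, and none passed (limma, with 1 at an unadjusted p under 0.05, beside 12.5% of all probe sets). Imp4, across the 156-base interval shown above, had 11.20, 11.22 and 11.12 with GFP and 10.95, 10.95 and 10.98 with GFP+FOG1. The FOG1 arrays were all lower, with a log2 change of -0.22 (SE 0.048), and a limma adjusted p of 0.20. The log2 change of Imp4 stayed between -0.25 and -0.19 in all 13 alternatives run, and its adjusted p ranged from 0.086 to 0.47 (limma). Ptpn18, a tyrosine phosphatase gene 20057 bp beyond Ccdc115, overlapped between the groups (log2 change -0.05; limma adjusted p = 0.76). On the other side, Dst, a cytoskeletal linker gene 128008 bp away, was at -0.16 (adjusted p = 0.54, limma). Bend6, the next gene, was at -0.27 (limma adjusted p = 0.43), with FOG1 replicate 3 the lowest array for both.

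**Figure D3:**
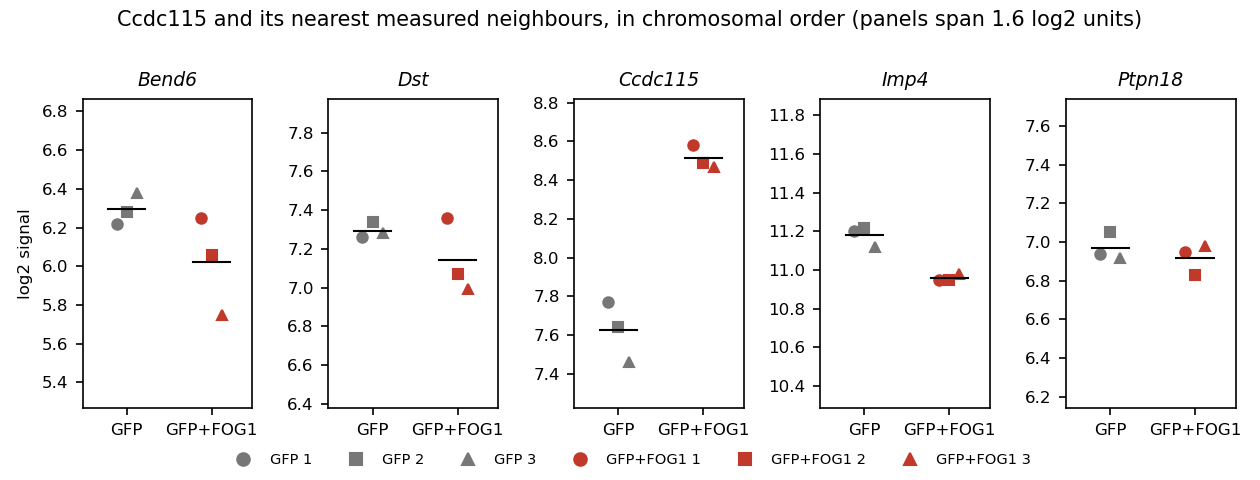
Log2 signal of Ccdc115 and its nearest measured neighbours in chromosomal order on the 3 GFP (grey) and 3 GFP+FOG1 (red) arrays, with group means as black lines and a span of 1.6 log2 units in each panel. Ccdc115 is higher in all FOG1 arrays, Imp4 is lower in all of them by a mean of 0.22, and the groups overlap for Bend6, Dst and Ptpn18.

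Genes whose signal followed Ccdc115 most closely over the 6 arrays were sought among 11501 1-symbol probe sets at or above the median signal. The 5 with the highest Pearson correlation were Akap1 (0.9967), Mib1 (0.9957), Ncapd3 (0.9927), Cpm (0.9921) and Tm7sf3 (0.9896). These values describe 6 arrays in 2 groups, so a gene that differs between the groups has a high correlation by construction. Cpm, a membrane carboxypeptidase, had 9.06, 9.10 and 8.93 against 9.68, 9.63 and 9.61, a log2 change of 0.61. The other 4 had smaller changes of 0.11 to 0.16. Akap1, which anchors protein kinase A at mitochondria, had 8.46, 8.45 and 8.42 against 8.56, 8.55 and 8.54, so its likeness to Ccdc115 is one of order and not of size.

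Ion transporters that work beside the pump in endosomes and lysosomes were measured for 12 of 13 genes, and none passed (limma, with 2 at an unadjusted p under 0.05, beside 12.5% of all probe sets; median log2 change -0.05). Clcn6, a chloride-proton exchanger of late endosomes, had 9.32, 9.07 and 9.18 with GFP and 9.57, 9.56 and 9.61 with GFP+FOG1. Every FOG1 array was above every GFP array (log2 change 0.39, SE 0.068), but it did not pass (limma adjusted p = 0.13). Mcoln1, a lysosomal calcium channel, was at -0.12 (limma adjusted p = 0.36), Slc9a7, a sodium-proton exchanger of the Golgi, at -0.11 (0.49), and the lysosomal channel gene Tpcn2 at -0.09 (0.51).

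Lysosomal enzymes and membrane proteins, whose work depends on the acid the pump makes, had negative log2 changes for 16 of 17 measured genes, with a median of -0.08. None passed (limma, with 4 at an unadjusted p under 0.05, beside 12.5% of all probe sets), and 15 were negative after median centring. Over all probe sets 18716 of 34760 were negative, and 15304 after median centring. Lamp1, a major protein of the lysosomal membrane, had 10.70, 10.72 and 10.71 with GFP and 10.59, 10.54 and 10.49 with GFP+FOG1 (log2 change -0.17, SE 0.045; limma adjusted p = 0.26). The cholesterol carriers of the lysosome, Npc2 and Npc1, were at -0.19 (limma adjusted p = 0.27) and -0.15 (0.32), and Psap, the precursor of the saposins, at -0.12 (0.33).

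The mean signal of these 17 genes was 9.68, 9.80 and 9.82 on the GFP arrays and 9.77, 9.67 and 9.56 on the FOG1 arrays. These means overlapped between the groups, with the lowest value on FOG1 replicate 3. Taken singly, 5 of the 17 genes had groups that did not overlap, all with FOG1 below, where 10.5% of all probe sets had FOG1 below. Fibroblast and stromal markers had means of 7.67, 7.77 and 7.78 with GFP and 7.89, 7.72 and 7.38 with GFP+FOG1, also lowest on FOG1 replicate 3, and 4 of 7 had negative log2 changes. The mean of the macrophage markers was lower on all 3 FOG1 arrays, and their median log2 change was -0.115. Of these 8 genes, 3 had groups that did not overlap, beside 19.6% of all probe sets (10.5% with FOG1 below). They were Itgam (log2 change -1.11), Mpeg1 (-0.57) and Cd14 (-0.20), all with FOG1 below. The groups overlapped for Cd68 (-0.12), Lyz2 (-0.11), Fcgr1 (-0.06), Csf1r (-0.04) and Adgre1 (-0.02). Atp6v0a1 was lowest on FOG1 replicate 3 as well. Without that array the median of the lysosomal genes was -0.053, and without FOG1 replicate 1 it was -0.127. The part of stromal or macrophage RNA in these values was not tested, and fewer cells of a type cannot be told apart from less RNA per cell.

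**Figure D4:**
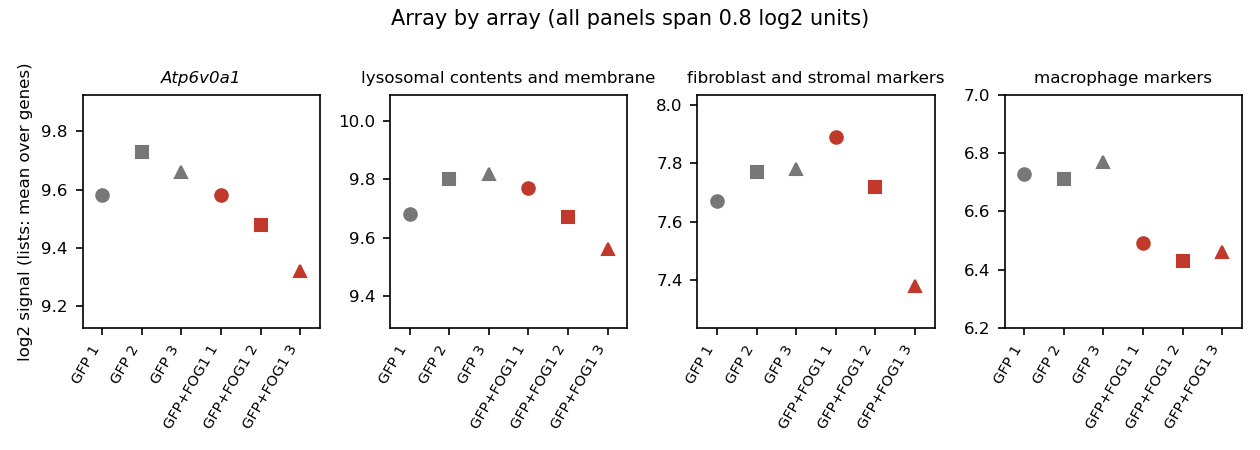
Log2 signal of Atp6v0a1 and the mean log2 signal of 3 gene lists (lysosomal contents and membrane, fibroblast and stromal markers, macrophage markers) on each of the 6 arrays, with a span of 0.8 log2 units in each panel. FOG1 replicate 3 is the lowest array in the panels of Atp6v0a1 (9.32), the lysosomal genes (9.56) and the stromal markers (7.38), and the macrophage markers lie at 6.43 to 6.49 on the FOG1 arrays and 6.71 to 6.77 on the GFP arrays.

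At the lysosome surface the pump takes part in amino acid sensing by mTORC1, and TFEB and its relatives drive pump genes when that signal falls. Of 19 measured genes of this circuit none passed (limma, with 3 at an unadjusted p under 0.05, beside 12.5% of all probe sets), and the median log2 change was -0.002 (0.024 after median centring). Rragd, a Rag GTPase gene, had 7.27, 7.38 and 7.35 with GFP and 7.51, 7.64 and 7.59 with GFP+FOG1 (log2 change 0.24, SE 0.057; limma adjusted p = 0.22). Rheb, the GTPase that switches mTORC1 on, was at 0.19 (limma adjusted p = 0.26) and Mtor, the kinase itself, at -0.16 (0.29). Tfe3, a transcription factor of the TFEB family, was at -0.11 (limma adjusted p = 0.41).

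Golgi glycosylation and trafficking genes were listed because defects of pump assembly disturb glycosylation. Of 16 measured genes, 12 had positive log2 changes, also after quantile normalization and after median centring, with a median of 0.07 and none past the threshold (limma, with 2 at an unadjusted p under 0.05, beside 12.5% of all probe sets). Of all 34760 probe sets, 16044 were positive, with 17222 after quantile normalization and 19456 after median centring. Slc39a8, a manganese and zinc importer, had 7.53, 7.54 and 7.55 with GFP and 7.68, 7.80 and 7.71 with GFP+FOG1 (log2 change 0.19, SE 0.049; limma adjusted p = 0.24). Cog4, a subunit of the Golgi tethering complex, was at 0.12 (limma adjusted p = 0.37), B4galt1, a galactosyltransferase, at 0.10 (0.48), and Mgat1, which starts complex N-glycans, at -0.10 (0.42).

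Hypoxia-inducible factor and iron genes were listed because cells need endosomal acid to free iron from transferrin, and loss of CCDC115 or TMEM199 is known to stabilize the hypoxia factor. All 21 were measured, none passed (limma, with 4 at an unadjusted p under 0.05, beside 12.5% of all probe sets), and the median log2 change was 0.03. Tfrc, the transferrin receptor gene, had 11.09, 11.06 and 11.13 with GFP and 11.22, 11.34 and 11.39 with GFP+FOG1 (log2 change 0.22, SE 0.059; limma adjusted p = 0.25). Ftl1, the light chain of the iron store ferritin, had 9.25, 9.08 and 9.29 against 8.86, 9.03 and 8.90 (log2 change -0.28, SE 0.074; limma adjusted p = 0.26). The groups did not overlap for either gene. In the whole list they did not overlap for 9 of the 21, 5 with FOG1 above and 4 with FOG1 below, beside 19.6% of all probe sets. Hif1a, the hypoxia factor gene, was at 0.11 (limma adjusted p = 0.38) and its target Pdk1 at -0.11 (0.38).

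**Figure D5:**
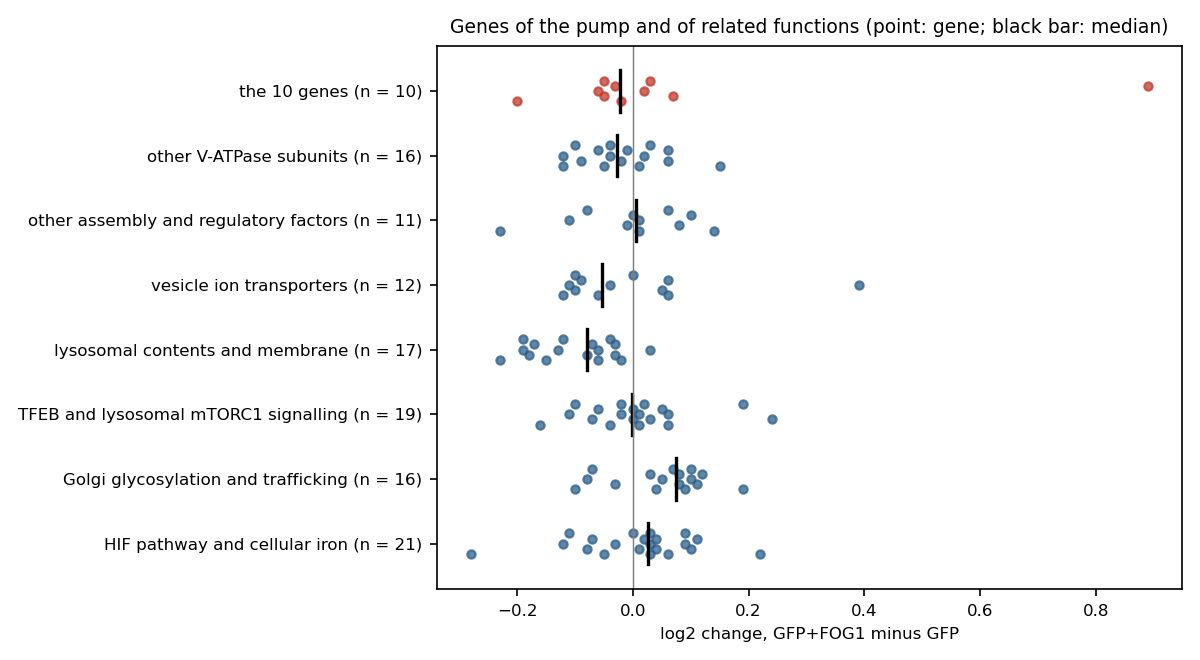
Log2 change (GFP+FOG1 minus GFP) of every measured gene in the 8 lists of the pump and related functions, 1 point for each gene, with the list median as a black bar. Ccdc115 (0.89) is the point farthest from 0, followed by Clcn6 (0.39), and the medians lie between -0.08 and 0.07.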

How the data were processed

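RNA from 6 samples was measured on 1 Affymetrix mouse gene array each. The deposited table holds 1 log2 signal per probe set and array, made by the authors with the affy package, per the submitters' processing notes. For background correction and normalization the method is "not given in the sources used here", and the log2 scale was read from the values (3.12 to 14.07, array medians 6.98 to 7.04). Changes are therefore relative to the other probe sets of an array. The number of arrays limits the precision.

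Groups came from the sample titles, and genes from the platform annotation (1 symbol per probe set), whose symbols were checked against RefSeq genes of GRCm38.p6 (0 changed). All 34760 probe sets entered limma 3.58.1 (R 4.3.3), with no block and Benjamini-Hochberg adjustment (threshold 0.05). A gene of a list was read at its brightest 1-symbol probe set. Named were all 10 genes, the members of each list past the threshold and up to 4 with the smallest unadjusted p. Also named were the 2 nearest measured genes on each side of Ccdc115, and the 5 probe sets most correlated with it. Outside these rules, Zfpm1, Tcirg1, Atp6v0b, Vma21 and the subunit isoform genes with low signals were named. For the marker lists of cell types counts and means are given. Added to these are the median and log2 changes of the macrophage markers, and the changes of Cd79a, Cd79b and Cd72. The members and lists were chosen with earlier results of these data known. Simulated data with known changes were used to test the script. Alternatives were quantile normalization, median centring, leaving out dim probe sets, 1-symbol probe sets only, the replicate number as a block, a robust variance trend, array weights, leaving out each array, and averaging the probe sets of a gene. The plots used matplotlib 3.10.9 (Python 3.11.15).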

Additional observations from a re-analysis of the deposited data

How the results depend on the processing

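The log2 change of Ccdc115 was 0.81 to 0.96 in all 13 alternatives, and it was called in 7 of them. Since Ccdc115 was picked on this contrast, nothing is read from that count of calls. With single arrays left out, the count of called probe sets was 17 to 38 against 78, that of the 10 genes 0 to 1, their median -0.023 to -0.009, and that of the other subunits -0.063 to -0.005, where fewer arrays are one reason. Deviations of same-numbered arrays from their group means correlated at -0.07, 0.01 and -0.04, which gives no pairing by number. With the replicate block, 9 probe sets and 0 of the 10 genes passed, and the log2 change of Ccdc115 stayed at 0.89. The median of the 10 genes was -0.047 after quantile normalization and 0.004 after median centring. After centring the other subunits had a median of -0.003 and the 6 further lists 0.025, against -0.028 and 0. No gene of those lists passed in any alternative (limma). Atp6v0a2, Atp6v0d1 and Atp6v1a reached or crossed 0 in some alternatives, within -0.09 to 0.04. No pseudocount was tried on these log2 values.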
